A study of Mus musculus with 20 samples.

Results

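The nuclear lamina is a meshwork of lamin filaments under the inner nuclear membrane. B-type lamins (Lmnb1, Lmnb2) are made by nearly every cell, whereas A-type lamins (Lmna) rise as cells leave the progenitor state and are abundant in cells under mechanical load. Proteins of the inner nuclear membrane bind the lamina and chromatin. LBR tethers heterochromatin and B-type lamins, and emerin (Emd), LAP2 (Tmpo) and MAN1 (Lemd3) share a LEM domain that binds the DNA-bridging protein BAF (Banf1). SUN1 and SUN2 join the lamina to the cytoskeleton through nesprins. The envelope is taken apart and rebuilt at each mitosis, and loss of lamin B1 is a known feature of senescent cells.

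These 10 genes were taken by symbol, and 10 of 10 were present among the 27998 genes of the single-cell data and among the 24062 genes of the RNA-seq data. Nestin-EGFP+ cells (a transgene that marks neural stem cells (NSCs) and also vascular cells) were sorted from the dentate gyrus of C57BL/6 mice at postnatal day 5 (P5), 12 weeks (12w) and 24 weeks (24w), with 1 scRNA-seq and 1 scATAC-seq library per age. The number of pooled animals is not given in the sources used here. The RNA-seq libraries came from mouse NSCs cultured for many passages, labelled hippocampus but described by the study as derived from embryonic cortex, that were infected with a lentivirus carrying a shRNA against Setd8, the methyltransferase of H4K20me1, or a scrambled shRNA, and were selected with puromycin. Cells were collected 3 days after infection per the labels, against 2 days in the study's dataset.

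The values of the libraries labelled Ctrl_3, Setd8KD_1 and Setd8KD_2 equalled columns headed Ctrl in Dataset EV4 of the study, and those of the library labelled Setd8KD_3 equalled a column headed Setd8KD, in each case for 170 of 170 genes. The comparison below follows those headings, which go against 2 labels, and every direction given for the knockdown rests on that. Setd8 itself was at 154, 143 and 143 TPM (a level scaled for gene length and library depth) in the libraries labelled Ctrl_3, Setd8KD_1 and Setd8KD_2, and at 36.4 TPM in the library labelled Setd8KD_3. The first 3 are called control libraries and the last the knockdown library. Of 12 NSC markers, 7 were at 1 TPM or more in all 4 libraries and 4 were under 1 TPM in all of them. Their summed level was 682 to 753 TPM over the libraries. Markers of oligodendrocyte precursors summed to 3498 to 3924 TPM and those of neural progenitors to 302 to 732 TPM.

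After filters the P5 library held 12752 cells, the 12w library 5271 and the 24w library 2794, with a median of 4261, 2271 and 2178 unique molecular identifiers (UMIs) per cell. Pairs of libraries shared 26 to 86 cell barcodes. Clusters were named from markers as astrocyte-like (AS), NSC-like, neural progenitor-like (NPC), immature neuron-like (IMN), oligodendrocyte precursor-like (OPC), oligodendrocyte-like (OL), ependymal-like (EP), pericyte-like (PC), vascular smooth muscle-like (VSMC), endothelial-like (EC) and interneuron-like (IN) cells, and 3799 cells stayed unnamed. Age was mixed with sex and depth. In order of age, Xist was at 488, 1733 and 0.280 CPM (UMIs scaled to a common total) and Y-linked Ddx3y at 34.7, 0 and 73.8 CPM. The P5 library listed no barcode under 1495 UMIs, so free RNA could be read from empty droplets only at 12w and 24w, where it made up 8.28% and 11.2% of UMIs in neural classes.

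The sequence upstream of the start site is shown for Tmpo, Banf1, Lbr and Lmnb2, since these members fell in the knockdown, were higher in mitotic cells of the OPC and PC lineages and had a start-site peak of open chromatin over the window at every age. The sequences are from RefSeq (GRCm38.p6), which had a promoter entry for 9 of the 10 members. The member without an entry was Lmnb1, which also fell in the knockdown and was higher in mitotic cells of both lineages. The windows are the 250 bases before the start, on the minus strand, at chr10:91171620-91171869 (Tmpo), chr19:5366877-5367126 (Banf1), chr1:181842402-181842651 (Lbr) and chr10:80918246-80918495 (Lmnb2). Those of Tmpo, Banf1 and Lbr lie within the gene spans given below, which are from GENCODE and begin at another annotated start. Capitals mark CCAAT, the E2F letters TTCCCGCC or TTTCCCGC, and the CHR letters TTTGAA, on either strand, and Lmnb2 holds none of these.
Tmpo: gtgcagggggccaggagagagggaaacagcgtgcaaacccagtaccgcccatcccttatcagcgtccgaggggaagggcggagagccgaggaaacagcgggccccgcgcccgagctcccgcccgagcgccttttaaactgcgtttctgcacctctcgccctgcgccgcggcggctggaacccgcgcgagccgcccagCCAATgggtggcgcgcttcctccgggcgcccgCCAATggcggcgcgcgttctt
Banf1: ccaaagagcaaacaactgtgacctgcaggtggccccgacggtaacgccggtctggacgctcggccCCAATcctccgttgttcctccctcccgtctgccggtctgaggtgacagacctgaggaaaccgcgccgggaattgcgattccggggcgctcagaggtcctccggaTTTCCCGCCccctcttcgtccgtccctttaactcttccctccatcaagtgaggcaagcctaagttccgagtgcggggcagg
Lbr: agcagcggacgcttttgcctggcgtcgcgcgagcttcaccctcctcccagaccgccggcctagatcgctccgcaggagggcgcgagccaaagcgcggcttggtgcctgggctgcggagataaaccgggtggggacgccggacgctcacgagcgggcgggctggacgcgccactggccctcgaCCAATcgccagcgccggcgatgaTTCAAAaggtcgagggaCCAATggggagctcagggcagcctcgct
Lmnb2: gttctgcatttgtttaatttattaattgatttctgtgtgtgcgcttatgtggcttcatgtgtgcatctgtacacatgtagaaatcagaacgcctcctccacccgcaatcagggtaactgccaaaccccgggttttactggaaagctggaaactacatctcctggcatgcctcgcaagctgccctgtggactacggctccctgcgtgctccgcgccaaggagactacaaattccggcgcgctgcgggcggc

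Over the 250 bases before the start, searched on both strands, TTCCCGCC stood in 1.86% and TTTCCCGC in 0.895% of 32851 promoters, and among 9 members only in Banf1, where the 2 matches overlap at 81 to 73 bases before the start. TTTGAA stood in 15.99% of promoters and in 2 members, Lbr (45 to 40 bases before the start) and Sun2. CCAAT stood in 33.8% of promoters and in 7 of 9 members. There were 2 matches in Tmpo (53 to 49 and 21 to 17 bases before the start) and 2 in Lbr (68 to 64 and 28 to 24). TTTGGCGC, TTTCGCGC and TTCGAA, in 0.417%, 0.256% and 1.34% of promoters, were in 0 of 9 members. The GC box GGGCGG was in 9 of 9 members and in 32.7% of promoters. In the same build, the genes lie by GENCODE at chr3:88480147-88509956 (Lmna), chr10:80901203-80918245 (Lmnb2), chr1:181815335-181843046 (Lbr), chrX:74254687-74261548 (Emd), chr10:91147571-91181315 (Tmpo), chr10:120923413-120979332 (Lemd3), chr19:5364638-5367168 (Banf1), chr5:139200637-139249840 (Sun1) and chr15:79724070-79742536 (Sun2). Lmnb1, which was not searched, lies at chr18:56707813-56753424.

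To learn how the lamina genes stand in cultured NSCs, their levels were first ordered in the 3 control libraries. Banf1 was at 523 ± 4.32 TPM (SD, n = 3), above 98.1% of the genes tested, and Lmnb1 at 261 ± 8.02 TPM. Emd (132 ± 4.88 TPM) and Tmpo (119 ± 2.51 TPM) followed, then Lmna (59.5 ± 4.88 TPM) and Lmnb2 (49.3 ± 1.61 TPM). Lbr (32.9 ± 1.69 TPM), Sun2 (31.0 ± 1.83 TPM) and Sun1 (29.3 ± 0.708 TPM) had ranges that overlapped between neighbours, and Lemd3 was lowest at 10.8 ± 0.644 TPM. Lmnb1 was thus the most abundant of the 3 lamin transcripts in each of these cultures.

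Setd8 knockdown was then compared with control. Both B-type lamins, Lbr, Tmpo and Banf1 were lower in the knockdown library, and no member was significantly higher by limma. Lmnb1, the lamin lost in senescence, was at 255, 258 and 271 TPM in the control libraries and at 136 TPM in the knockdown library. Tmpo was at 121, 121 and 116 TPM against 63.4 TPM. For both genes the control values lay close together and the knockdown value far under the lowest of them. The log2 fold change was −0.93 for Lmnb1 (SE 0.072, adjusted p = 0.00728) and −0.90 for Tmpo (SE 0.068, adjusted p = 0.00716), by limma with Benjamini-Hochberg adjustment over 13233 genes. Since 1 arm had 1 library, its spread was assumed to be that of the control libraries.

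Lmnb2 was at 47.8, 49.0 and 51.0 TPM in control and 33.4 TPM in knockdown. Lbr was at 34.8, 31.7 and 32.1 TPM against 22.0 TPM. Banf1 was at 528, 521 and 520 TPM against 375 TPM. In each of these the knockdown value lay below the 3 control values, by a smaller fold than for Lmnb1 and Tmpo. The log2 fold changes were −0.55 for Lmnb2 (adjusted p = 0.0138 by limma), −0.56 for Lbr (adjusted p = 0.0172) and −0.48 for Banf1 (adjusted p = 0.0138). Without the library labelled Setd8KD_1 the adjusted p by limma rose to 0.0525 for Lmnb2 and Lbr and to 0.0559 for Banf1, and without the library labelled Setd8KD_2 to 0.0507 for Lbr. With no filter on low values it was 0.0501 for Lmnb2 and 0.0797 for Lbr.

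Lmna went the other way, at 55.1, 58.6 and 64.8 TPM in control and 75.6 TPM in knockdown, above the 3 control values. The log2 fold change of 0.34 did not pass by limma (SE 0.11, adjusted p = 0.0848). It passed in both count models, with an adjusted p of 0.00797 by edgeR and 0.00831 by DESeq2. Emd was at 137, 130 and 128 TPM against 117 TPM (adjusted p = 0.169 by limma) and Sun1 at 28.6, 29.2 and 30.0 TPM against 25.3 TPM (adjusted p = 0.0901 by limma and 0.0419 by edgeR). Sun2 (30.6, 29.4 and 33.0 TPM against 30.7 TPM) and Lemd3 (11.5, 10.2 and 10.6 TPM against 10.3 TPM) had a knockdown value inside the control range.

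Of the 10 members, 5 passed as lower and 0 as higher by limma, where 16.3% of all genes tested were lower and 16.1% higher. The median log2 fold change was −0.34 over the members and 0.0015 over all genes. Among 26 other nuclear envelope genes, 24 were tested, and 7 were lower and 1 higher, with a median of −0.15. Lower were Ndc1 (log2 fold change −1.34) and Pom121 (−0.74), which anchor nuclear pores, the pore proteins Nup107 (−0.75) and Nup153 (−0.37), nurim (Nrm, −0.99), Vrk1 (−0.78), the kinase that releases BAF from DNA, and Ankle2 (−0.39), which counters it. Tmem43, an inner nuclear membrane protein that binds emerin, was higher (0.38), but not when any 1 control library was left out. The 7 lower became 5 or 6 without 1 control library and 11 by edgeR, and the 1 higher became 3 by edgeR and by DESeq2. Vrk1 was at 56.4, 54.9 and 56.3 TPM in control and 32.0 TPM in knockdown.

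Genes of the cell cycle moved with these members. Of 18 mitotic genes, 18 were lower, with a median log2 fold change of −1.03, and of 18 S-phase genes 18 were lower, with a median of −0.92. The summed level of the mitotic list was 2328, 2374 and 2309 TPM in control and 1055 TPM in knockdown, and that of the S-phase list 2533, 2711 and 2701 TPM against 1430 TPM. The part of the cell cycle in the change of the lamina genes was not tested. In such bulk samples fewer cells of a type and less RNA per cell cannot be told apart.

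**Figure D1:**
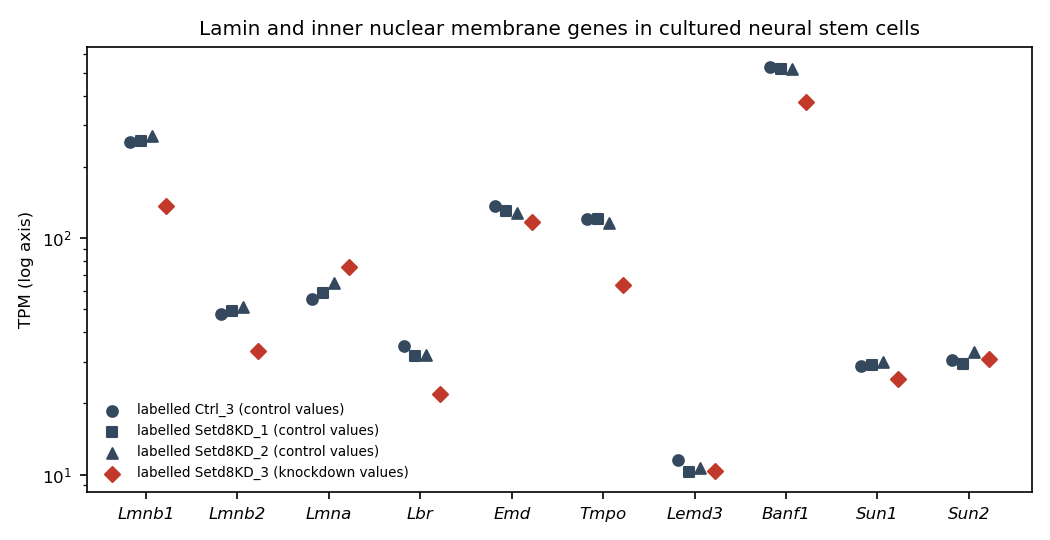
TPM of the 10 genes on a log axis, 1 point per RNA-seq library, with control values in blue-grey and knockdown values in red. The knockdown point lies below the 3 control points for Lmnb1, Lmnb2, Lbr, Tmpo and Banf1, and also for Emd and Sun1, which did not pass by limma, and above them for Lmna, which did not pass either.

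Next, the members were described across cell classes. No test was possible between classes of 1 library, and values are pooled UMIs with counting intervals. At P5, Lmnb1 was at 310 CPM (95% interval 299 to 321) in NPC-like cells, 247 CPM in cycling OPC-like cells and 239 CPM in cycling PC-like cells. Non-cycling classes were all under these, led by IMN-like cells at 92.2 CPM (85.02 to 99.9), OPC-like cells at 73.9 CPM and EP-like cells at 61.0 CPM. NSC-like (35.9 CPM), OL-like (32.2 CPM), PC-like (31.0 CPM), AS-like (28.9 CPM) and VSMC-like cells (23.6 CPM) formed the low end, where each interval overlapped that of the next. The highest class was 13.1 times the lowest.

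Lmna was led by other classes. It was at 278 CPM (234 to 328) in VSMC-like cells, 226 CPM in cycling PC-like cells, 151 CPM (132 to 171) in PC-like cells and 95.1 CPM in EP-like cells. OL-like cells had 41.2 CPM, and the neural classes lay between 21.2 CPM in IMN-like and 7.27 CPM in cycling OPC-like cells, with overlapping intervals between neighbours. The highest class was 38.2 times the lowest, the widest range of any member at P5. At 12w the range of Lmnb1 was wider, at 61.2 times against 29.8 for Lmna. At 24w the ranges were 15.95 and 12.5 times, but the lowest Lmnb1 value, in EC-like cells, rested on 3 UMIs (1.67 to 23.6 CPM). No order of the 2 ranges is given at 24w. NPC-like cells, highest for Lmnb1 at 12w, were too few at 24w, so the classes ranked differ by age. Cycling PC-like cells were among the 3 highest classes for both Lmnb1 and Lmna, which held for no other class. At 12w and 24w, when EC-like cells had 50 or more members, these held 144 and 186 CPM of Lmna.

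Tmpo and Banf1 were highest in the same 3 cycling classes as Lmnb1. Tmpo was at 359 CPM in NPC-like, 308 CPM in cycling PC-like and 278 CPM in cycling OPC-like cells, against 85.4 CPM or less elsewhere. Banf1 was more even, from 398 CPM in NPC-like to 152 CPM in AS-like cells, a range of 2.61 times. Lbr was led by cycling PC-like (59.5 CPM) and cycling OPC-like cells (53.5 CPM), with NPC-like cells at 36.8 CPM. Lmnb2 was at 37.7 CPM in NPC-like cells and at 6.54 CPM in EP-like cells, and the intervals of all neighbours in its order overlapped.

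Emd varied least after Banf1, from 143 CPM in NPC-like to 46.9 CPM in AS-like cells. Sun1 and Lemd3 were led by a different class, EP-like cells, at 47.9 CPM (37.1 to 61.0) and 15.2 CPM (9.44 to 23.3), and the Lemd3 interval there did not overlap that of the next class, AS-like cells at 6.503 CPM. EP-like cells had the lowest Sun2, 2.18 CPM from 3 UMIs. Sun2 was at 23.8 CPM in cycling PC-like and 20.7 CPM in IMN-like cells.

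**Figure D2:**
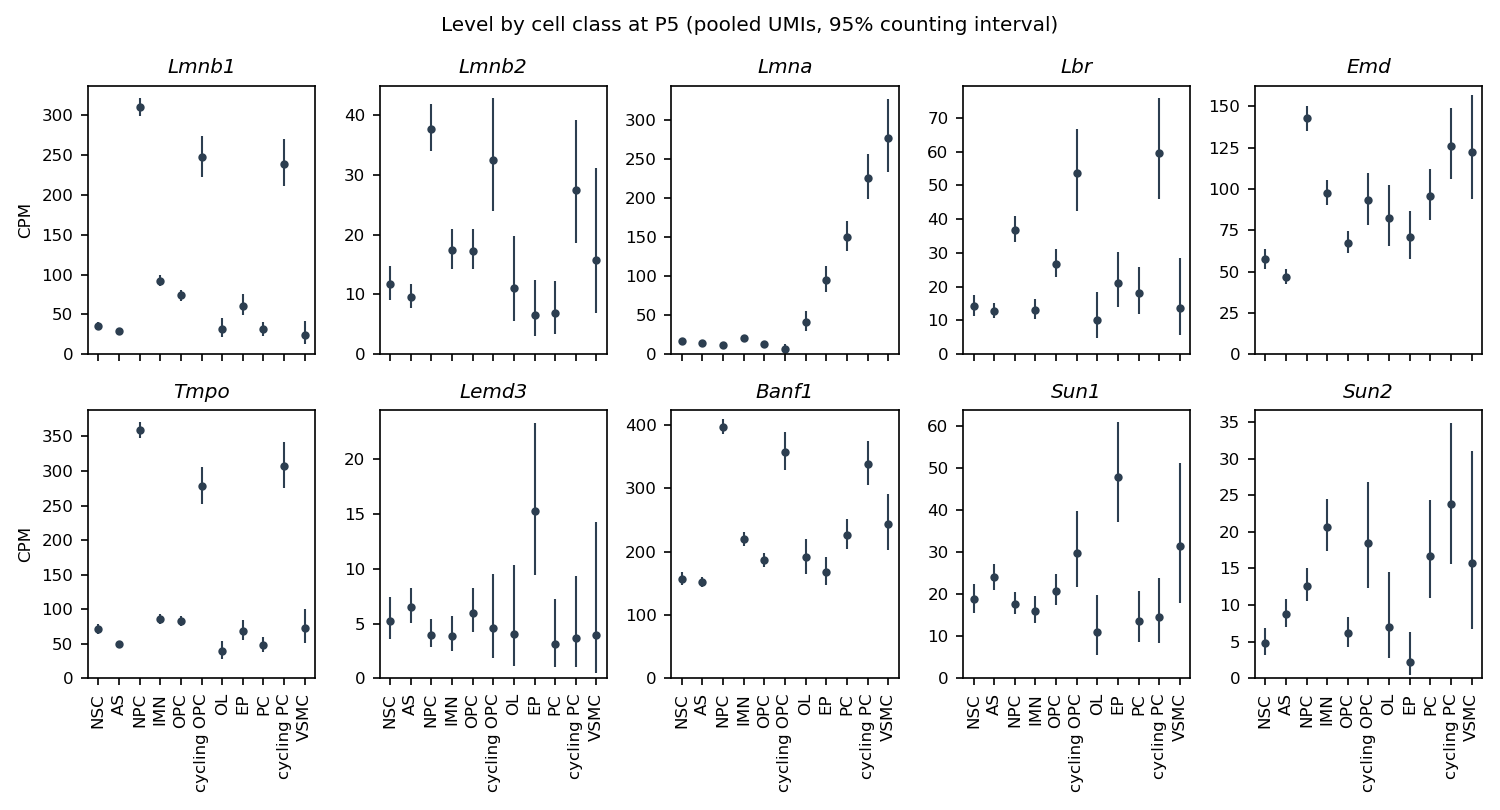
CPM of each gene in 11 cell classes at P5, with points for pooled UMIs and bars for the exact 95% counting interval. Lmnb1, Tmpo and Banf1 peak in NPC, cycling OPC and cycling PC, whereas Lmna is highest in VSMC, cycling PC, PC and EP.

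Over 26 groups of class and age, the genes most like Lmnb1 by Pearson's r of log2(CPM + 10), among 8068 genes, were Trim59 (0.95), Nasp (0.94), Ska2 (0.94), Hmgn2 (0.93) and Dck (0.93). Those most like Lmna were Rbpms (0.96), 4930523C07Rik (0.95), Cobll1 (0.95), Ehd2 (0.94) and Stat6 (0.94). Among members, r with Lmnb1 was 0.82 for Tmpo, 0.80 for Banf1, 0.75 for Lmnb2 and −0.52 for Lmna, and r with Lmna was 0.60 for Sun2 and 0.60 for Emd. Groups of 1 age share a library and its depth, so these are descriptions.

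To describe cycling state within a lineage, cells at P5 were thinned to 1000 UMIs and grouped by UMIs of the 18 mitotic genes (mitotic, at least 2 UMIs), of the 18 S-phase genes (S-phase, at least 2, and fewer than 2 mitotic) or neither. NPC-like cells comprised 759 mitotic, 296 S-phase and 232 other cells, and 382 of them had 1 or 2 mitotic UMIs and so lay near the limit. Markers of cycling had also named this class. A gene is counted as past the fold when it differs by 1.5-fold or more with at least 20 UMIs in the higher group. Of 9 members that met this minimum in NPC-like cells, 5 were past it as higher in mitotic cells and 0 as lower, where 13.0% of 9442 genes were higher and 5.61% lower. The median log2 ratio was 0.68 over all members, including Lmna, which did not meet the minimum, and 0.043 over all genes that met it.

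In mitotic NPC-like cells Lmnb1 was at 369 CPM, against 217 CPM in S-phase and 194 CPM in other cells, a ratio of 1.90 (1.69 to 2.15) between the first and the last. Tmpo was at 433, 250 and 203 CPM (ratio 2.13, 1.89 to 2.40). For both genes the S-phase cells lay nearer to the other cells than to the mitotic cells. Lmnb2 (ratio 2.36), Lbr (2.45) and Sun2 (2.09) were also past the fold. Banf1 (1.26) and Emd (1.17) were not, and Lmna had 12.5 CPM in other and 9.48 CPM in mitotic cells. In S-phase NPC-like cells 1 of 8 members, Lmnb2, was higher (ratio 1.58) and 0 were lower, where 10.0% and 4.64% of genes were.

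In the OPC lineage, which comprised 382 mitotic, 203 S-phase and 1718 other cells, 6 of 10 members were higher in mitotic cells and 1 was lower, against 7.79% and 13.5% of all genes. The groups sat in different clusters, since 289 of the 382 mitotic cells were in the cycling OPC cluster and 1669 of the 1718 other cells in the OPC clusters. The members were not compared within clusters. Tmpo was at 78.8 CPM in other cells, 155 CPM in S-phase and 267 CPM in mitotic cells, and Lmnb1 at 75.8, 113 and 229 CPM. Both thus had intermediate levels in S-phase cells, with ratios of 3.39 and 3.03 at the mitotic end. Sun2 (2.71), Lbr (1.97), Banf1 (1.77) and Lmnb2 (1.68) were also higher. Lmna was the exception, at 14.3 CPM in other and 6.22 CPM in mitotic cells, a ratio of 0.434 (0.191 to 0.865) that rests on 9 UMIs in mitotic cells. In S-phase cells, of 8 members, Tmpo (1.97) and Lmnb2 (1.86) were higher and Lmna (0.624, 0.223 to 1.42, from 6 UMIs) past the fold as lower, against 3.59% and 17.0% of genes. That interval held 1, and the log2 ratio of Lmna turned to 0.18 with at least 3 UMIs of a cycle list, so no direction is given for it.

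In the PC lineage, with 109 mitotic and 319 other cells, 7 of 9 members were higher in mitotic cells and 0 lower, against 10.7% and 15.8% of all genes. Here 95 of the 109 mitotic cells were in the cycling PC cluster, which was led by Tubb6, Col4a2 and Fam162b, and 297 of the 319 other cells were in the PC clusters, and the members were not compared within clusters. Tmpo was at 334 CPM in mitotic and 57.5 CPM in other cells (ratio 5.80, 4.58 to 7.41) and Lmnb1 at 255 and 44.7 CPM (5.71, 4.36 to 7.55). These were the widest steps of the 3 lineages. Lmnb2 (4.99), Lbr (2.90) and Banf1 (1.59) were higher as well, and Sun2 (1.74, 0.945 to 3.20) was past the fold with an interval that held 1. Lmna was at 249 CPM against 151 CPM (1.65, 1.37 to 1.99), where in the OPC lineage it was lower in mitotic cells. With 36 S-phase cells, that group was not compared. Among the other envelope genes, 5 of 22 in NPC-like cells, 7 of 20 in the OPC and 6 of 14 in the PC lineage were higher in mitotic cells. The shares of all genes were 13.0%, 7.79% and 10.7%. As lower there were 0, 0 and 1, against 5.61%, 13.5% and 15.8%. Vrk1 was higher in all 3 lineages, Nrm, Ndc1 and Syne2 in the OPC and PC lineages, and Pom121 and Nup107 in NPC-like cells and the OPC lineage. Icmt was higher in NPC-like cells and lower in the PC lineage.

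**Figure D3:**
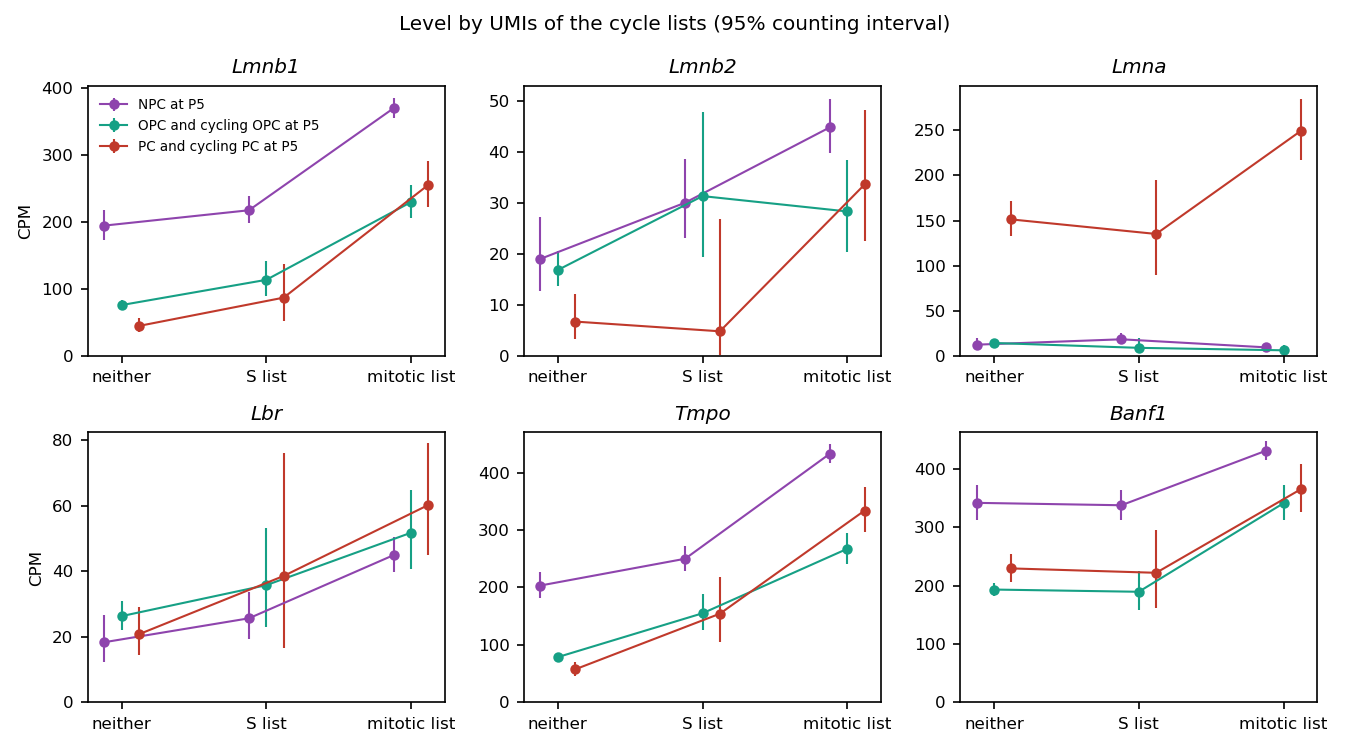
CPM of 6 members in cells of 3 lineages at P5 with few cycle UMIs (neither), S-phase UMIs or mitotic UMIs, with exact 95% counting intervals. Lmnb1, Lbr and Tmpo are highest in mitotic cells of each lineage, and Lmna is high in the PC lineage only.

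Members were then compared between ages within the 5 classes that had 50 or more cells at every age. A gene counts as changed with age when both adult libraries differ from P5 by 1.5-fold or more to the same side, each on 20 or more UMIs in the higher group. The P5 library had the most pooled UMIs in neural classes and the 24w library held the fewest cells, so a gene could be counted as lower on a few adult UMIs, whereas one that was higher had to reach 20 UMIs at 24w. The counts of lower and higher members thus depend on depth, and members that missed only this minimum are given by their ratios. There was no replicate, and the median log2 ratio of all genes itself shifted, by 0.28 and 0.31 in PC-like, 0.40 and 0.37 in VSMC-like, −0.057 and −0.30 in NSC-like, −0.20 and −0.41 in AS-like, and 0.13 and −0.13 in IMN-like cells at 12w and 24w.

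In NSC-like cells 5 of the 10 members met the minimum, and 2 of them were lower at both adult ages and 0 higher, against 21.4% and 9.68% of all genes that met it. A cluster led by Ass1, Cyr61 and Pla2g16 held 726 of the 1395 cells at P5, 276 of the 386 at 12w and 75 of the 100 at 24w, so the class too had another make-up by age. Lmnb1 had 35.9 CPM (218 UMIs) in the P5 library, 20.1 CPM (27 UMIs) in the 12w library and 11.4 CPM (4 UMIs) in the 24w library. Each later value was below the one before. The intervals at 12w (13.2 to 29.2 CPM) and 24w (3.10 to 29.1 CPM) overlapped. Set against P5, the 12w level was 0.559 times as high (0.360 to 0.836) and the 24w level 0.317 times (0.0857 to 0.824). After subtraction of free RNA, which could be made at the adult ages only, the log2 ratios went from −0.84 and −1.66 to −1.35 and −3.21. Free RNA held Lmnb1 at 86.6 CPM at 12w and 70.55 CPM at 24w, above its level in these cells. The subtraction could thus only lower the ratios, and no direction is read from it. Banf1 was at 157, 72.8 and 51.2 CPM, with ratios of 0.463 (0.372 to 0.570) and 0.326 (0.192 to 0.517). Relative to the median of all genes, the log2 ratios of Lmnb1 were −0.78 and −1.35 and those of Banf1 −1.06 and −1.32. Of the 1395 NSC-like cells at P5, 18 were mitotic and 61 in S-phase by the rule above, and of the 386 at 12w 0 and 10 were. Without such cells the log2 ratios of Lmnb1 were −0.88 and −1.67.

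Of the other members, Sun1 (ratios 1.98 and 1.67), Sun2 (3.11 and 2.38) and Lmna (2.28 and 1.85) were above 1.5-fold at both ages but had only 11, 4 and 11 UMIs at 24w, and their intervals there held 1. Lmnb2 had ratios of 1.46 and 1.46, Tmpo 1.08 and 0.759, and Lbr 0.840 and 0.804, with intervals that held 1. Emd had 1.496 (1.202 to 1.85) and 1.83 (1.27 to 2.57). Lmna had 17.0, 38.6 and 31.3 CPM in order of age. Free RNA of the droplets held Lmna at 151 CPM at 12w and 196 CPM at 24w, and after its subtraction the log2 ratio at 24w changed from 0.88 to −0.71, so no direction is given for Lmna in NSC-like cells.

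Of 6 members that met the minimum in AS-like cells, 2 were lower, Banf1 and Lemd3, and 0 higher, against 28.9% and 8.85% of all genes. The smaller of the AS clusters held 198 of the 2061 cells at P5, 96 of the 264 at 12w and 26 of the 90 at 24w. Banf1 was at 152, 75.1 and 51.3 CPM at P5, 12w and 24w. Lemd3 rested on 3 UMIs at 12w and 1 UMI at 24w, and both of its intervals held 1. Lmna (ratios 2.70 and 2.82), Sun1 (1.56 and 2.44) and Sun2 (1.88 and 3.75) were above 1.5-fold at both ages and missed only the minimum, with 11, 16 and 9 UMIs at 24w. Their 6 intervals lay above 1. After subtraction of free RNA the log2 ratio of Lmna at 24w went from 1.4955 to 0.52, under the fold. Lmnb1 had 28.9, 11.04 and 22.0 CPM, with ratios of 0.382 (0.181 to 0.713) and 0.761 (0.277 to 1.68), so that it passed the fold at 12w and not at 24w. After subtraction of free RNA its log2 ratios were −2.78 and −0.87, past the fold at both. Free RNA held Lmnb1 above its level in these cells too, so that step could only lower the ratios and no direction is read from it.

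In IMN-like cells Lmnb1 was not lower with age. The class had another make-up by age here as well, since a cluster of shallow cells led by Gal and Meg3, with a median of 1821 UMIs, held 430 of the 1562 cells at P5, 61 of the 747 at 12w and 15 of the 108 at 24w. Lmnb1 had 92.2, 124 and 129 CPM in order of age, with ratios of 1.35 (1.18 to 1.53) and 1.40 (1.06 to 1.81). Of 6 members that met the minimum, Tmpo was the 1 past the fold, as higher, at 85.4, 134 and 131 CPM (ratios 1.57 and 1.53), and 0 were lower, against 8.69% and 12.3% of all genes. Sun1 had larger ratios, 1.79 (1.34 to 2.40) and 2.37 (1.38 to 3.90), and missed only the minimum, with 19 UMIs at 24w. Lmna met the minimum with ratios of 1.33 (1.01 to 1.76) and 2.57 (1.63 to 3.90), past the fold at 24w only. Free RNA held Lmna at 151 CPM at 12w and 196 CPM at 24w, so no direction is given for Lmna in IMN-like cells. Banf1 had ratios of 0.879 and 0.879 there. Relative to the median of all genes Tmpo was under the fold at 12w. NPC-like cells had enough members at P5 and 12w only, and in them Lmnb1 was at 310 and 497 CPM and Tmpo at 359 and 592 CPM.

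PC-like cells had the most members past the fold. Of 9 members that met the minimum, 7 were higher at both adult ages and 2 lower, against 30.3% and 13.0% of all genes. The class sat in different clusters by age. A cluster led by Kcnj8, Slc22a8 and Nodal held 281 of the 325 cells at P5, 1048 of the 2422 at 12w and 762 of the 1733 at 24w, and most of the others were in clusters led by Spp1 and Atp13a5 (11, 707 and 551 cells) and by Ackr3 and Mgp (33, 667 and 420 cells). The 139 cycling PC-like cells at P5, a class with 0 cells at 12w and 24w, were left out. In them Tmpo (308 CPM), Lbr (59.5 CPM) and Lmnb2 (27.5 CPM) were above the adult PC-like levels. Lmna (226 CPM), Emd (126 CPM), Sun1 (14.7 CPM) and Sun2 (23.8 CPM) were below them. The part of these clusters and of the cycling class in the ratios was not tested. Lmna had 151 CPM in young cells against 343 and 308 CPM in the 12w and 24w cells, and neither adult interval overlapped that of P5. Its ratios were 2.28 (1.99 to 2.62) and 2.04 (1.77 to 2.35). Sun1 was at 13.7, 42.7 and 45.4 CPM (ratios 3.13 and 3.32) and Sun2 at 16.8, 44.9 and 39.6 CPM (2.68 and 2.36). Both partners of the nesprins thus stood above P5 at either adult age, on 22 and 27 UMIs at P5. Lbr (2.16 and 2.61), Tmpo (1.90 and 2.09), Emd (1.95 and 1.86) and Lmnb2 (1.65 and 1.78) were higher as well. Relative to the median of all genes 5 of the 7 were past the fold, Lmna, Lbr, Tmpo, Sun1 and Sun2. The Lmnb2 intervals held 1.

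Lmnb1 was lower with age in PC-like cells, with 31.0, 20.6 and 14.1 CPM in order of age, with ratios of 0.664 (0.466 to 0.954) and 0.455 (0.302 to 0.686). It was not past the fold at 12w in cells with at least 2000 UMIs (log2 ratio −0.50) or in cells with few cycle UMIs (−0.45). After subtraction of free RNA, which held more Lmnb1 than these cells and so could only lower the ratios, the log2 ratios were −1.08 and −2.16. Banf1 was at 227, 126 and 120 CPM (0.556 and 0.526). Of 21 other envelope genes compared, 9 were higher and 0 lower, against 30.3% and 13.0% of all genes. Among the 9 were the nesprins Syne1 and Syne2 and Zmpste24, the protease that matures prelamin A. These 3 and Tor1aip1 were also higher in VSMC-like cells, where 4 of 9 were higher and 1 lower, against 33.8% and 13.9% of all genes. NSC-like, AS-like and IMN-like cells had 0 higher and 1 lower each, of 10, 13 and 12 compared. Median UMIs per PC-like cell were 4693 at P5, 1842 at 12w and 2025 at 24w, and the part of depth in these ratios was not tested.

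Of 7 members that met the minimum, VSMC-like cells had Sun2 (ratios 3.82 and 3.599) and Lbr (1.86 and 1.88) past the fold as higher and Banf1 (0.512 and 0.439) as lower, against 33.8% and 13.9% of all genes, from 73 cells at P5. Sun2 rested on 8 UMIs at P5, with intervals of 1.86 to 9.12 at 12w and 1.68 to 8.83 at 24w. Lbr rested on 7 UMIs at P5, both of its intervals held 1, and relative to the median of all genes it was under the fold. Lmnb1 (ratios 0.343 and 0.574) was below P5 by more than 1.5-fold at both ages and missed only the minimum, with 12 UMIs at P5 and an interval at 24w that held 1. Their Lmna was at 278, 403 and 392.3 CPM, under the fold at both ages. Banf1 was past the fold as lower in NSC-like, AS-like, PC-like and VSMC-like cells and not in IMN-like cells. The median log2 ratio of the members at 12w and 24w was 0.95 and 0.96 in PC-like, 0.37 and 0.38 in VSMC-like, 0.42 and 0.48 in IMN-like (10 members at 12w and 9 at 24w), 0.56 and 0.12 in NSC-like and −0.042 and −0.25 in AS-like cells. These medians took in members under the minimum. In NSC-like cells at 24w they took in Lmnb2, Lmna, Sun1 and Sun2 on 6, 11, 11 and 4 UMIs. The medians of all genes given above took only genes that met the minimum, so they are not set against each other.

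**Figure D4:**
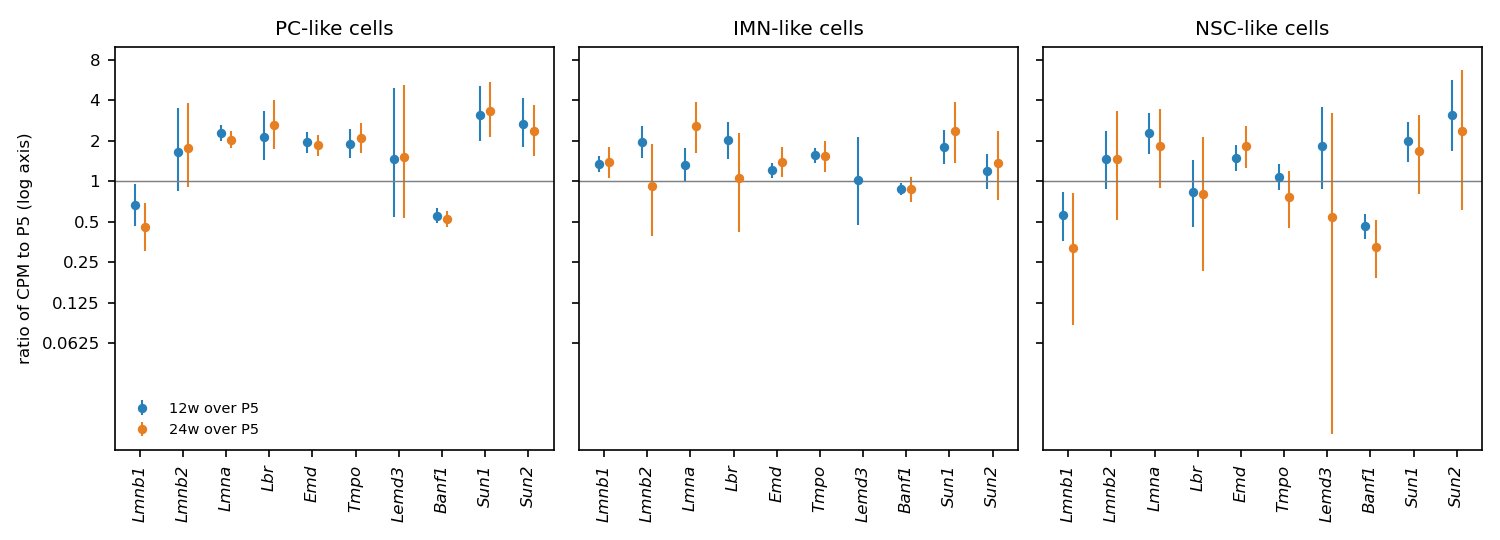
Ratio of CPM at 12w (blue) and 24w (orange) to P5 on a log axis for each gene in PC-like, IMN-like and NSC-like cells, with exact 95% counting intervals. Lemd3 had 0 UMIs at 24w in IMN-like cells and has no point there. Lmnb1 lies below 1 in PC-like and NSC-like cells and above 1 in IMN-like cells.

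Open chromatin over the start sites was read from 8788, 12638 and 6041 nuclei in order of age, as counts in start-site peaks scaled to a common total of counts in peaks (CPM). Peaks had been called in each library on its own, so their widths differ. Over all nuclei 1 member was lower and 1 higher at both adult ages, against 18.4% and 7.38% of 14306 genes. The median ratio of all genes was 0.836 at 12w and 0.850 at 24w. Lmnb2 (peak chr10:80917178-80918929 at P5) was lower, with ratios of 0.648 and 0.4997, and per kb of peak at 12.9, 8.45 and 7.20 CPM. Its 12w ratio was within 1.5-fold of the median of all genes, and its 24w ratio was not. Lmna was higher, with ratios of 2.21 and 3.99, but its peaks covered 3846, 9220 and 13359 bases at P5, 12w and 24w, and per kb it was at 11.5, 10.6 and 13.2, a density ratio of 0.921 and 1.15. Within PC-like nuclei the counts were 116, 125 and 200.4 CPM and the density 30.2, 13.5 and 15.0 CPM per kb in order of age, so the count was higher and the density lower than at P5. In IMN-like nuclei the counts were 47.0, 64.2 and 80.1 CPM, and in AS-like nuclei 44.4, 64.9 and 118 CPM, in order of age. The density was lower than at P5 in both classes at the adult ages. Since the peaks differ in width by age, no direction with age is given for Lmna within classes.

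Density in classes of nuclei showed where Lmna was open. At P5 it was 30.2 CPM per kb in PC-like nuclei, 15.0 in NSC-like, 12.2 in IMN-like, 11.6 in AS-like and 8.23 in OPC-like nuclei. No cluster of nuclei was named NSC-like at 12w or 24w. The AS-like cluster at 12w scored 1.63 on AS and 1.31 on NSC markers, so AS-like nuclei at the adult ages may hold both. At 12w EC-like (18.9), VSMC-like (15.2), PC-like (13.5) and EP-like nuclei (15.7) were above IMN-like (6.97), AS-like (7.04) and OPC-like nuclei (7.32), and at 24w the 3 vascular classes were again above (18.4, 16.6 and 15.0 against 5.997, 8.85 and 6.65). EC-like nuclei had the highest density at both adult ages, whereas EC-like cells had the lowest Lmna transcript level of the 3 vascular classes. The EC-like values rest on 66 and 60 nuclei, and their intervals overlapped those of VSMC-like nuclei at both ages. Lmnb1 was more even, between 18.2 and 24.1 in the classes at P5, and had ratios over all nuclei of 0.820 and 0.838, close to the median of all genes. Lmnb2 was lower in PC-like nuclei at 12w (5.47) and 24w (6.12) than at P5 (11.9), whereas AS-like nuclei had 9.77, 10.1 and 9.77.

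Tmpo, on a peak of nearly constant width (2403, 2447 and 2433 bases), had ratios of 0.788 and 0.770, and Lemd3 0.759 and 0.708. The Banf1 peak, with 0.758 and 0.784, also holds the start site of Eif1ad, so its counts cannot be assigned to 1 gene. Lbr had 0.872 and 0.891 in counts but 1.35 and 1.41 in density, since its peak covered 3717, 2402 and 2343 bases. Emd, Sun1 and Sun2 lay between 0.939 and 1.09. PC-like nuclei were 363 of 8788 at P5, 6518 of 12638 at 12w and 3513 of 6041 at 24w, so the values over all nuclei also depend on the make-up of the libraries. Within classes, the density of Lemd3 was 17.7, 10.1 and 9.54 CPM per kb in PC-like nuclei in order of age, 14.5, 11.8 and 10.1 in IMN-like and 14.0, 12.3 and 10.9 in AS-like nuclei. That of Tmpo was 24.8, 17.1 and 16.3 in PC-like and 24.3, 18.0 and 20.1 in IMN-like nuclei. Over all nuclei the ratios of both genes lay within 1.5-fold of the median of all genes and neither was past the fold, so nothing particular to them is read from these values.

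**Figure D5:**
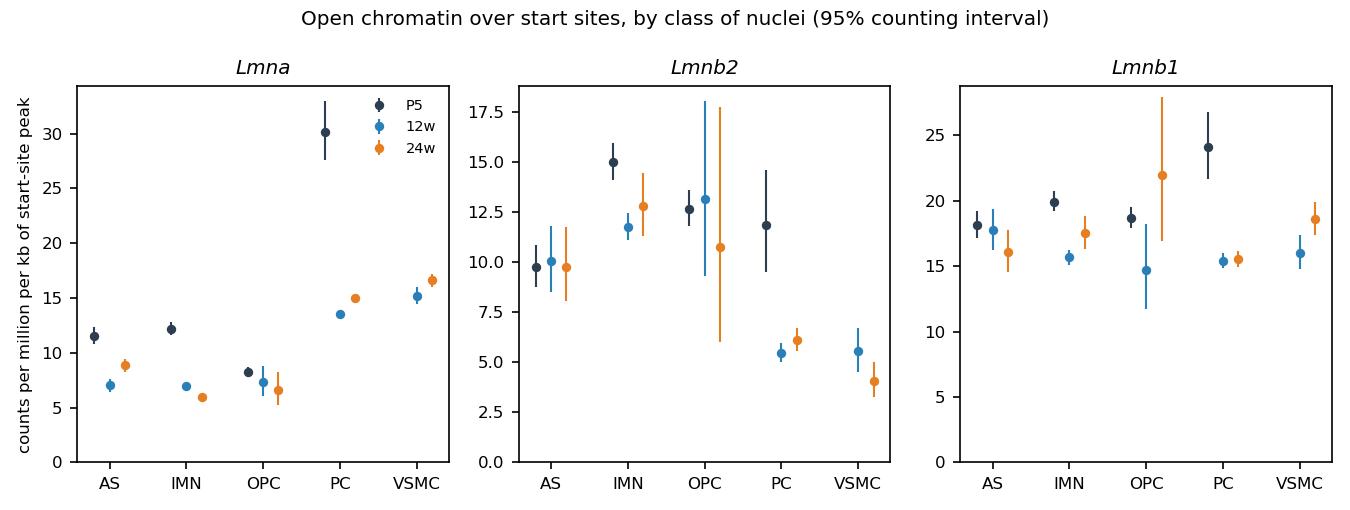
Counts per kb of start-site peak, scaled to a common total (CPM), for Lmna, Lmnb2 and Lmnb1 in AS-like, IMN-like, OPC-like, PC-like and VSMC-like nuclei at each age, with exact 95% counting intervals. Among these classes Lmna is highest in PC-like nuclei at P5 and in PC-like and VSMC-like nuclei at 12w and 24w. VSMC-like nuclei were not found at P5.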

How the data were processed

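RNA-seq values were TPM deposited by the authors (trimming with Trimmomatic and alignment to mm10 with STAR, per the labels and the study's methods), held by 4 of the 6 RNA-seq files. Of the other 2, 1 held gene symbols and 1 gene lengths. Libraries were grouped by Dataset EV4 of the study, whose columns equalled them over 170 of 170 genes. Genes with TPM of at least 1 in 1 library were tested with limma 3.58.1 on log2(TPM + 1), with Benjamini-Hochberg adjustment. This replaces a count test, since the files hold TPM. Reads recovered from TPM and length were whole, within 0.02, for at least 99.2% of values. They served edgeR 4.0.16 and DESeq2 1.42.0. Depth was 20040058 to 21493328 reads.

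scRNA-seq and scATAC-seq values were raw counts deposited by the authors (UMIs from Cell Ranger 2.2.0, and counts in peaks, on mm10). Cells had at least 1000 UMIs, 500 genes and at most 10% mitochondrial UMIs. Doublets were removed with scrublet in scanpy 1.11.5 (932 of 13684 cells in the P5 library, 80 in the 12w library and 3 in the 24w library, where the caller marked 0.107%). Clusters were made with Seurat 5.3.0 (2000 variable genes without the members, 30 dimensions, resolution 0.8), with a second round for AS, NSC, NPC and IMN clusters, and named from fixed markers. Nuclei had 3000 to 100000 counts in peaks, and doublets were not called in them. Levels are pooled counts scaled to a common total (CPM) with exact 95% Poisson intervals, and ratios have exact conditional binomial intervals. The intervals cover counting error only. With 1 library per age there was no test. The tests and rules of size were tested on simulated data.

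The members, gene lists and rules were chosen with earlier results of these data known. Named genes are the 10 members, Setd8, a list of 26 other nuclear envelope genes, the cycle lists and the 5 genes most like Lmnb1 or Lmna over classes and ages. Python 3.11.15, R 4.3.3, numpy 2.4.6, scipy 1.17.1 and pandas 2.3.3 were used. H4K20me1 and bulk ATAC-seq samples were not used here. Alternatives are given in the closing section.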

Additional observations from a re-analysis of the deposited data

Results flagged for a closer look

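Lmnb1 differed between classes in the direction of its ratio to P5. In NSC-like cells it was at 0.559 of P5 at 12w and 0.317 at 24w, and in PC-like cells at 0.664 and 0.455, whereas in IMN-like cells it was at 1.35 and 1.40. The counting intervals of these 6 ratios did not hold 1. Each of the 3 classes was spread over its clusters in other shares at P5 than at the adult ages, and the part of this in the ratios was not tested. Lmna differed in the same way between lineages at P5. The ratio of mitotic over other cells was 0.434 (0.191 to 0.865) in the OPC lineage, on 9 UMIs in mitotic cells. In the PC lineage it was 1.65 (1.37 to 1.99). Most mitotic cells of both lineages sat in another cluster than most other cells, and the part of this was not tested. These are single libraries, so the difference was not tested in either case.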

How the results depend on the processing

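The single-cell libraries have no replicate, age is mixed with sex and depth, and Lmnb1 at 24w in NSC-like cells rests on 4 UMIs, so small ratios there could not be read. Free RNA could not be subtracted at P5. No paired analysis was possible because the RNA-seq libraries with TPM share only the number 3 between the labelled groups. In the knockdown comparison, 5 members were lower by limma. There were 3 without a filter (adjusted p 0.0501 for Lmnb2 and 0.0797 for Lbr), and leaving out 1 control library each gave 2 to 5, with 2 without the library labelled Setd8KD_1 and 4 without Setd8KD_2. As higher, edgeR and DESeq2 called 1 member (Lmna) where limma called 0. With the grouping of the sample labels 0 genes passed by limma, with 94 higher and 74 lower at an unadjusted p under 0.05, and 0 members were lower. Over all genes 2128 were higher and 2155 lower. These counts became 1072 and 863 without a filter, 847 and 899 without the library labelled Setd8KD_1, and 1076 and 1320 without Setd8KD_2. The log2 fold change of Sun2, −0.012, ranged from −0.048 to 0.033 when 1 control library was left out (0.033 without Setd8KD_2) and was 0.021 in the labelled grouping. Over 10 settings without the labelled grouping, that of Lmnb1 stayed between −0.96 and −0.91 and that of Tmpo between −0.93 and −0.89, with adjusted p of at most 0.0361.

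Counts of members past the fold moved as follows. Relative to the median of all genes, 1 was higher in NSC-like cells (Emd), 1 lower in AS-like, 0 higher in IMN-like and 1 higher in VSMC-like cells. After subtraction of free RNA 4 were lower in AS-like cells, among them Lmnb1, which this step could only lower. In cells with at least 2000 UMIs, and in cells with few cycle UMIs, 1 was lower in PC-like cells, and with few cycle UMIs 4 were higher in VSMC-like cells. At a fold of 2, NSC-like and AS-like cells had 1 lower each, 0 higher in IMN-like, 0 lower and 4 higher in PC-like, and 0 lower and 1 higher in VSMC-like cells. For cycling state at a fold of 2, mitotic cells had 3 higher in the OPC and 4 in the PC lineage, and S-phase cells 0 higher in NPC-like cells and 0 higher and 0 lower in the OPC lineage. With cells thinned to 2000 UMIs, S-phase cells had 3 higher in NPC-like cells and 0 lower in the OPC lineage. The log2 ratio of Lmna in S-phase cells of the OPC lineage turned to 0.18 with at least 3 UMIs of a cycle list. Over all alternatives, counts of members, those of the knockdown and of open chromatin included, were equal or within 1.5 times in 85 cases and moved in 27. The 85 cases include counts of 0 that stayed at 0. The cause of these differences was not tested.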

Other observations

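Setd8 itself was, like Lmnb1 and Tmpo, highest in mitotic cells at P5. In NPC-like cells it was at 109 CPM in mitotic, 88.2 CPM in S-phase and 65.6 CPM in other cells. In the OPC lineage it was at 106, 50.7 and 37.1 CPM, and in the PC lineage at 85.8 CPM in mitotic and 35.5 CPM in other cells.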
